A study of Rattus norvegicus with 24 samples.

Results

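TFMPP (trifluoromethylphenylpiperazine) and MeOPP (methoxyphenylpiperazine) are the 2 phenylpiperazines among the piperazine designer drugs tested on primary rat hepatocytes in collagen sandwich culture. Their samples were taken by title, as those treated with TFMPP or MeOPP together with the DMSO controls that name them. This gave 12 of the 24 arrays of the series, or 6 pairs of a treated array and its own control. TFMPP was given at 35 µM and MeOPP at 522 µM, each for 24 h at its EC20 (the concentration with a 20 percent effect), and each had 3 control arrays with 0.1 percent DMSO. The other 12 arrays hold BZP and MDBP, 2 benzylpiperazines, and their controls. RNA abundance was measured on Affymetrix expression arrays from 100 ng of total RNA, and values are RMA levels on the log2 scale. The labels give neither the strain nor whether the replicates came from different animals or cultures. The p-values therefore measure only the spread between these samples, and part of it may be technical.

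Both molecules carry a phenyl ring on the piperazine, and they differ in the group on that ring, trifluoromethyl in TFMPP and methoxy in MeOPP. Both are weak bases that were sold as recreational drugs, and the liver metabolises them. Hepatocytes are the cells that make cholesterol and bile acids, break down amino acids, make urea and glucose, secrete most plasma proteins and oxidise drugs. When membrane cholesterol in the endoplasmic reticulum runs low, the SREBP transcription factors are released and switch on the genes of sterol synthesis. Because the doses differ, the effect of the ring group and that of the dose cannot be told apart here.

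The labelled cell type was checked by its markers, although levels of different probe sets cannot be compared with each other. The mean level of 17 hepatocyte marker genes was 11.63 to 11.89 in the 6 DMSO arrays. That of 11 cholangiocyte markers was 4.06 to 4.16, that of 21 Kupffer cell and leukocyte markers 4.78 to 5.80, that of 22 stellate cell and fibroblast markers 4.59 to 5.32, and that of 16 sinusoidal endothelial markers 4.77 to 5.97. Array medians lay between 4.45 and 4.52, and the values carry no detection call, so that low marker levels cannot be told from background. In bulk RNA of this kind, fewer cells of a type and less RNA per cell cannot be told apart. DMSO arrays of TFMPP and MeOPP with the same replicate number correlated at 0.9957 to 0.9969, and those with other numbers at 0.9833 to 0.9895. The labels name no shared batch, but same-numbered pairs of the 2 compounds may come from the same cell preparation. RNA quality was read from control transcripts as their 3′ minus 5′ signal, which treatment raised in 4 of 6 pairs (mean change 0.038; exact sign-flip permutation test, two-sided p = 0.594, smallest possible 0.0312). For GAPDH it changed by 0.144, 0.006 and 0.025 with TFMPP and by -0.057, -0.019 and 0.001 with MeOPP, without overlap. For beta-actin the changes were 0.622, 0.031 and 0.248 against -0.237, -0.215 and 0.051, and these and those of hexokinase overlapped. Its bearing on TFMPP minus MeOPP was not tested.

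Genes of cholesterol synthesis, a fatty acid desaturase and lysosomal genes rose with the 2 phenylpiperazines. Genes for handling bile acids, degrading amino acids, oxidising drugs and metabolising glucose fell. A change is the log2 level of a treated array less that of its DMSO control, so that 1 stands for 2-fold, and the pooled change is the mean of the TFMPP and the MeOPP change. In limma with Benjamini-Hochberg adjustment over 31042 probe sets, 2859 changed in the pooled comparison at an adjusted p under 0.05, which is 9.21%, with 1278 higher (4.12%) and 1581 lower (5.09%). Counted as genes, each by its brightest probe set, 1781 of 14217 changed (12.5%), with 889 higher (6.25%) and 892 lower (6.27%). Changes of at least 2-fold were mostly falls, with 74 genes lower and 16 higher. Of the 1781 genes, 1582 (88.8%) moved the same way in 6 of 6 pairs, against 21.1% of all genes. The calls rest on these same changes and favour genes with like signs, so the share is a description and not separate evidence. Levels of the DMSO arrays differed between replicate numbers, and without the pair terms 114 probe sets were called. The all-gene median of the pooled change was 0.020.

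**Figure D1:**
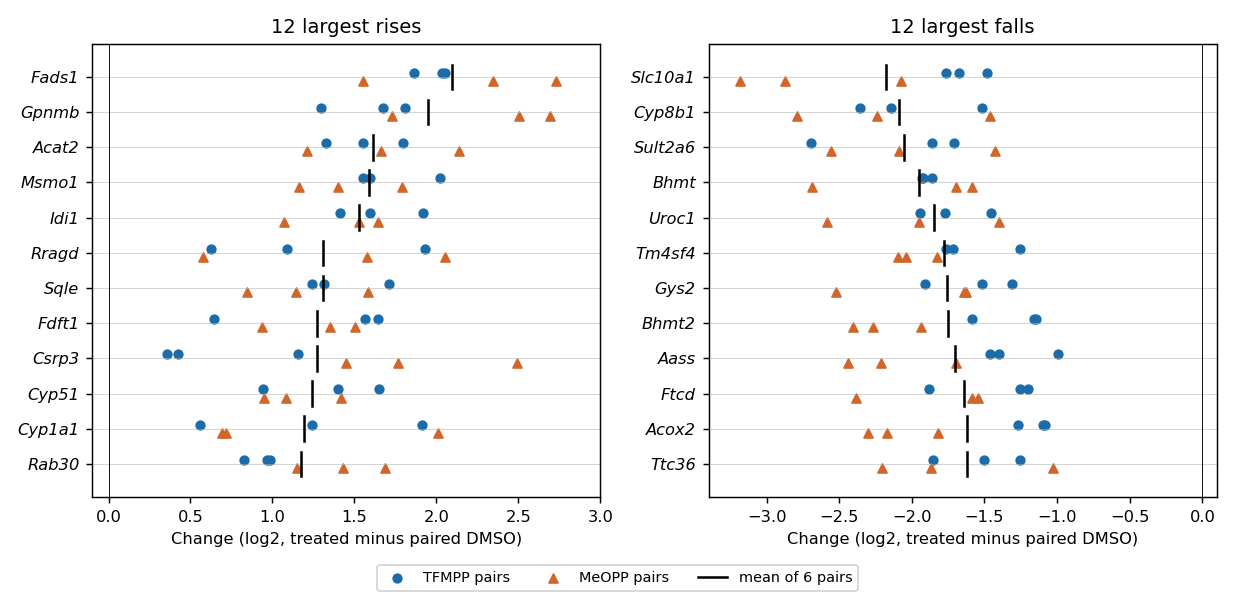
Change of the 12 genes with the largest pooled rises and the 12 with the largest falls, as the log2 level of the treated array less that of its control. Circles are the 3 TFMPP pairs, triangles the 3 MeOPP pairs and the bar their mean of 6. All 24 genes lie on 1 side of 0 in every pair, as the rule for naming them required, and for Csrp3, Slc10a1, Bhmt2 and Acox2, among others, all MeOPP points lie beyond all TFMPP points.

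Fads1, the delta-5 desaturase that makes polyunsaturated fatty acids, rose most. Its level in the DMSO arrays was 4.79, 3.76 and 4.76 for TFMPP and 4.99, 4.04 and 4.77 for MeOPP. In the treated arrays it was 6.65, 5.80 and 6.81 with TFMPP and 7.33, 6.76 and 6.32 with MeOPP. All 6 treated arrays lay above all 6 DMSO arrays, which held in the upward direction for 126 genes (0.886%). The pooled change was 2.10 ± 0.18 (SE, n = 6 pairs; 4.27-fold; limma adjusted p = 1.78e-06). Gpnmb, a transmembrane glycoprotein that is strongly made when lysosomes are under stress, came next. It stood at 7.30, 6.93 and 7.46 in the DMSO arrays of TFMPP and at 9.11, 8.61 and 8.76 in the treated ones. With MeOPP it went from 7.37, 7.29 and 7.68 to 10.06, 9.79 and 9.41, again with no overlap of treated and control arrays. The pooled rise was 1.95 ± 0.12 (3.86-fold; adjusted p = 2.88e-07).

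Slc10a1, the sodium-dependent carrier that takes bile acids up from blood, fell most. It went from 9.88, 10.60 and 8.25 to 8.21, 9.11 and 6.49 with TFMPP, and from 9.65, 10.30 and 8.15 to 6.77, 7.12 and 6.07 with MeOPP. Treated and control levels overlapped across replicate numbers, because the DMSO level itself was lower at number 3, but every treated array lay below its own control. The pooled change was -2.18 ± 0.17 (4.52-fold lower; adjusted p = 1.15e-06). Cyp8b1, the sterol hydroxylase that directs bile acid synthesis to cholic acid, went from 6.95, 8.33 and 7.81 to 5.43, 5.98 and 5.67 with TFMPP. With MeOPP it went from 6.71, 7.85 and 7.70 to 5.25, 5.05 and 5.46. Here all 6 treated arrays lay below all 6 DMSO arrays, as in 158 genes (1.11%), and the pooled change was -2.09 ± 0.26 (4.25-fold lower; adjusted p = 6.81e-05). Bhmt, which remethylates homocysteine with betaine, changed by -1.95 ± 0.20. Uroc1, which acts in histidine degradation, changed by -1.85 ± 0.16.

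**Figure D2:**
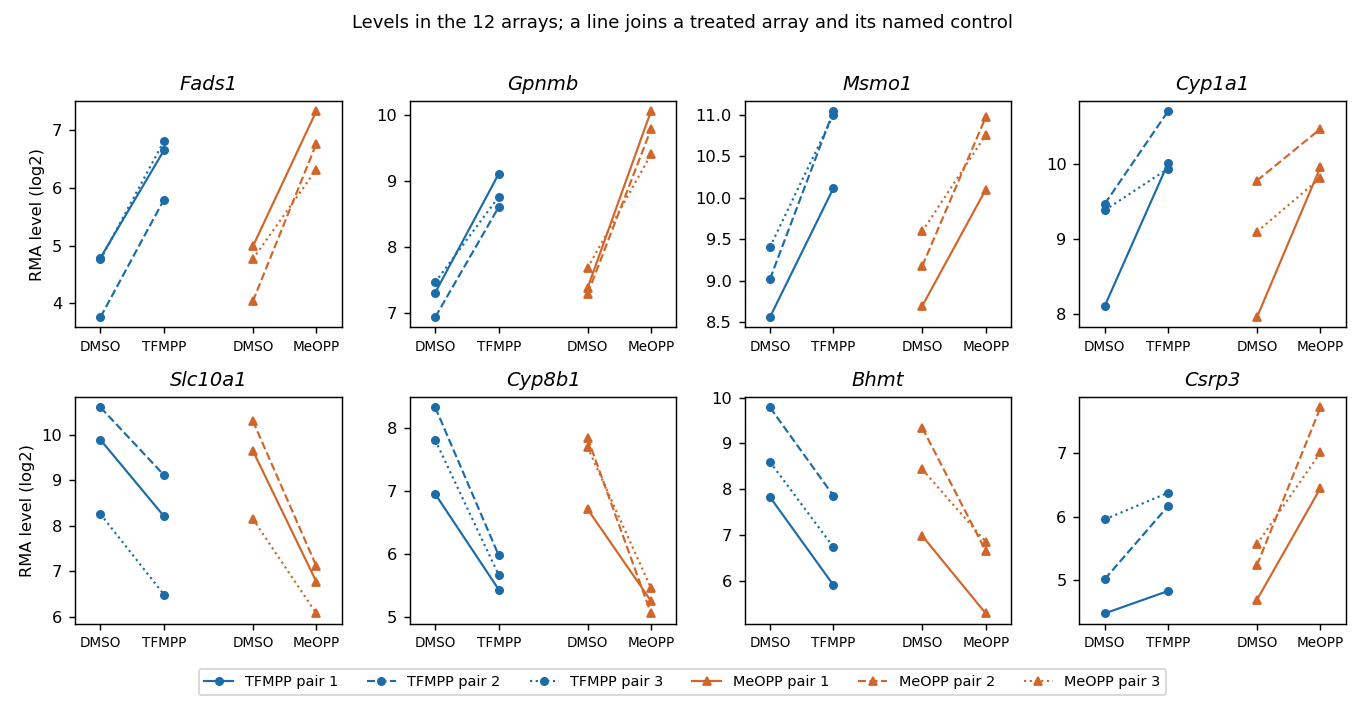
RMA level (log2) of 8 genes in the 12 arrays, with a line from each DMSO array to the treated array whose control it is. Blue circles are TFMPP pairs, orange triangles MeOPP pairs, and line styles mark replicate numbers 1 to 3. The lines of Fads1, Gpnmb, Msmo1 and Cyp1a1 rise in 6 of 6 pairs and those of Slc10a1, Cyp8b1 and Bhmt fall in 6 of 6, from starting levels that differ by replicate number. The lines of Csrp3 rise more steeply with MeOPP.

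The 2 compounds moved the same genes in the same direction wherever both were called. With TFMPP alone, 551 probe sets for 367 genes changed (1.78% of probe sets, 2.58% of genes). Of all probe sets 0.557% were higher and 1.22% lower, and 243 of the genes were lower. With MeOPP alone, 1865 probe sets for 1134 genes changed (6.01% and 7.98%). Here 2.23% of probe sets were higher and 3.78% lower, and 643 of the genes were lower. Both compounds called 309 genes, which is 84.2% of the TFMPP genes and 27.2% of the MeOPP genes. Of these, 89 were higher with both, 220 were lower with both and 0 went opposite ways by limma. Of the 825 genes called with MeOPP and not with TFMPP, 775 had a TFMPP change of the same sign. Over all 14217 genes 66.2% had the same sign, against 95.6% of the MeOPP calls and 99.2% of the TFMPP calls. A further 698 genes were called in neither compound but passed in the pooled comparison.

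Across genes, the mean TFMPP change and the mean MeOPP change correlated at 0.726, and at 0.796 over the 8608 genes with a mean level of at least 5. Genes are not independent replicates, so this is a description. The compounds have no control array in common by the labels. Single pairs of different compounds and different replicate numbers correlated at 0.423 to 0.512 over genes, with a median of 0.476 over 6 combinations. Pairs of different compounds with the same number gave 0.475 to 0.568, and pairs of the same compound with different numbers 0.462 to 0.583. A TFMPP pair was thus about as close to a MeOPP pair of its own number as to another TFMPP pair.

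**Figure D3:**
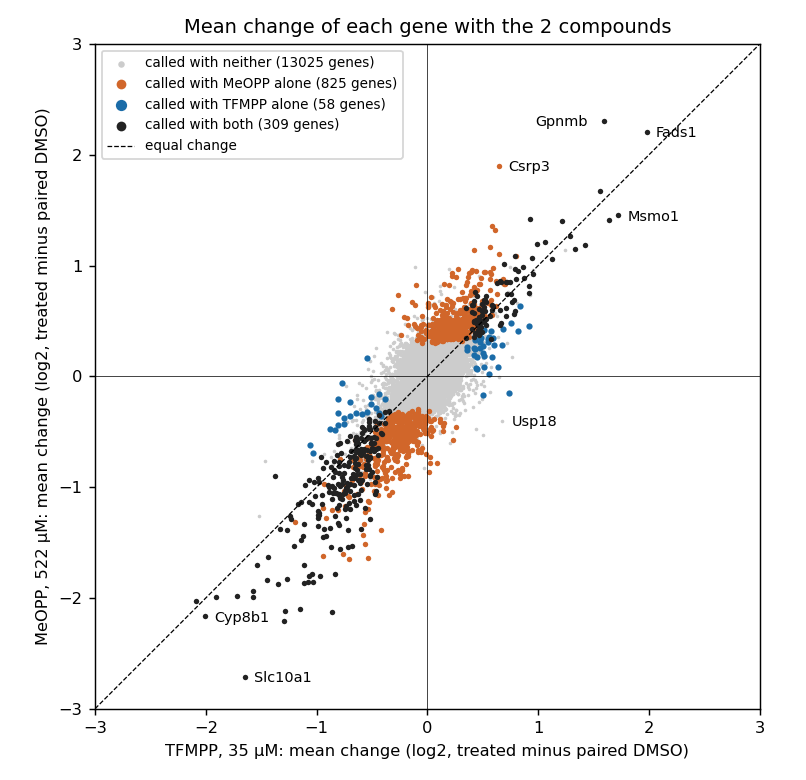
Mean change of each of 14217 genes with TFMPP (horizontal) and with MeOPP (vertical), both as log2 treated minus paired DMSO, coloured by the compound in which limma called the gene. The 309 black points, called with both, all lie at the lower left or the upper right, and r over all genes is 0.726. Most orange points, called with MeOPP alone, lie steeper than the dashed line of equal change. Both changes of a gene have the same SE, so this position follows largely from the rule of colouring.

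No single gene or probe set passed for the difference between the 2 responses. TFMPP minus MeOPP was called for 0 of 31042 probe sets (0.0%) by limma, with a smallest adjusted p of 0.7. At an unadjusted p under 0.05 there were 1721 probe sets (5.54%), 951 above and 770 below 0. This was 1 comparison of 1 pair of compounds. A p that misses the threshold does not show that they act alike, so the intervals are given. The 95% interval of the difference reached 0.335 to either side in the median gene. Among the 1781 genes of the pooled response, it lay within 0.5 on either side of 0 for 823 (46.2%) and within 1 for 1677 (94.2%). The interval excluded 0 for 242 of them (13.6%), against 5.49% of all genes. In 230 of these 242 the MeOPP change was the larger and in 12 the TFMPP change.

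The size of the 2 responses was also read in genes chosen on other arrays. For the mean of BZP and MDBP, 3386 of 14217 genes were called (23.8%), of which 221 changed at least 2-fold, 57 higher and 164 lower. In the direction of the benzylpiperazines, these 221 genes moved by a median of 0.77 with TFMPP and 1.01 with MeOPP. The direction was shared by 98.6% of them with TFMPP and by 100.0% with MeOPP. By pair the median was 0.89, 0.80 and 0.63 with TFMPP and 1.08, 1.24 and 0.81 with MeOPP. MeOPP was larger at each replicate number, yet the largest TFMPP pair lay above the smallest MeOPP pair, so the groups overlapped. Without pair 3 of MeOPP the difference of the medians was -0.39, and with all pairs -0.24. The genes were chosen where the benzyl response is large, and preparations may be shared with the arrays that chose them.

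Enzymes of cholesterol synthesis rose with both compounds. Of 17 measured members, 16 were higher in the pooled comparison, 11 with TFMPP and 11 with MeOPP, where 6.25%, 0.872% and 3.45% of all genes were higher. The list median was 0.80 with TFMPP and 0.59 with MeOPP. By pair it was 0.52, 1.16 and 0.90 with TFMPP and 0.63, 1.02 and 0.49 with MeOPP, so that the pairs overlapped, and 0 members had an unadjusted p under 0.05 for the difference. The list was chosen knowing that the study reports on it and is not independent evidence of its direction.

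The rises ran along the pathway. Acat2, which joins acetyl units at its start, rose by 1.61 ± 0.14. Idi1, the isomerase of the isoprenoid building blocks, stood at 8.00, 8.93 and 8.78 in the DMSO arrays of TFMPP and 9.60, 10.84 and 10.19 in the treated ones. With MeOPP it went from 8.19, 9.16 and 8.99 to 9.72, 10.81 and 10.06. All treated arrays lay above all controls, and the pooled rise was 1.53 ± 0.09 (2.88-fold; limma adjusted p = 1.96e-07). Fdps, which makes farnesyl diphosphate, rose by 1.09 ± 0.08, and its difference between the compounds was 0.07 with a 95% interval of -0.27 to 0.40. Fdft1, which makes squalene, and Sqle, which adds oxygen to it, rose by 1.27 ± 0.15 and 1.31 ± 0.09. Cyp51, the lanosterol demethylase, rose by 1.24 ± 0.09. Msmo1, which removes methyl groups from the sterol ring, went from 8.56, 9.02 and 9.41 to 10.12, 11.04 and 11.00 with TFMPP and from 8.70, 9.18 and 9.60 to 10.10, 10.97 and 10.76 with MeOPP. Its pooled rise was 1.59 ± 0.09 (3.01-fold; adjusted p = 1.96e-07). Dhcr7, the last reductase, did not pass, at 0.50 ± 0.19 (adjusted p = 0.123).

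The DNA just before the start of the 5 genes with the largest pooled rises was searched for short motifs, and 3 of them hold a CCAAT box, the element read by the factor NF-Y. Their 250 bases upstream of the start are shown because these genes rose together with both compounds. Sequences are from RefSeq, build GRCr8, given 5′ to 3′ on the strand of the gene, with CCAAT or its complement ATTGG in capitals. Fads1 (chr1:216252442-216252691, plus strand) has 1 box, Msmo1 (chr16:29746863-29747112, plus strand) has 3 and Idi1 (chr17:66547525-66547774, minus strand) has 2.
Fads1: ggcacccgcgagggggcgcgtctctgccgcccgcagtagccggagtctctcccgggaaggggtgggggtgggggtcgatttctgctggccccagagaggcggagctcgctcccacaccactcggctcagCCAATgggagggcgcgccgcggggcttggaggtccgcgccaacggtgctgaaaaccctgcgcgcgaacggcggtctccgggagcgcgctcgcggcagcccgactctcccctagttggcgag
Msmo1: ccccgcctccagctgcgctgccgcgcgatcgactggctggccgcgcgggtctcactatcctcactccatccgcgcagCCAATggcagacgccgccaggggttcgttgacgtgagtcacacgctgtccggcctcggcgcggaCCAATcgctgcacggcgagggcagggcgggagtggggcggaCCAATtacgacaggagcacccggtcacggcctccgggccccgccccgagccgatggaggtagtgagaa
Idi1: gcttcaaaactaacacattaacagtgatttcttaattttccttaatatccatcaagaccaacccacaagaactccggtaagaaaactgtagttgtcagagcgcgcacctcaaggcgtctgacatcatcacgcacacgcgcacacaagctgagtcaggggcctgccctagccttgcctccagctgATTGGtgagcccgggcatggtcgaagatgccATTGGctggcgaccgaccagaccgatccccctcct
The first base of each box lay 121 bases before the start in Fads1, 173, 109 and 68 in Msmo1, and 66 and 35 in Idi1. CCAAT was present on either strand in 11 of the 14 cholesterol synthesis genes with a promoter in the table. It was present in 34.0% of all 33469 promoters and in 36.4% of the 11733 measured genes with one. This motif was chosen after the values were seen. The sterol regulatory element in the form TCACNCCAC, on either strand, was found in 0 of the 14 promoters and in 0.974% of all promoters. A match is a description and not a binding site, and 0 matches says only that these letters are not in these windows.

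Genes that sense sterols or take them up were next. Of 16 measured members of sterol regulation and uptake, 6 rose and 2 fell in the pooled comparison. Over all genes 6.25% rose and 6.27% fell in it. Insig1, which holds the SREBP complex in the endoplasmic reticulum and is itself switched on by it, rose by 0.78 ± 0.10, and Stard4, a cholesterol carrier, by 0.93 ± 0.10. Srebf2, the main activator of the pathway, rose by 0.44 ± 0.10 (adjusted p = 0.0134). That call was lost without pair 2 of TFMPP (adjusted p = 0.0703) or of MeOPP (adjusted p = 0.069), and with the probe sets of the gene averaged the rise was 0.22. Lcat, the plasma enzyme that esterifies cholesterol, fell by 0.85 ± 0.10. In fatty acid and triglyceride synthesis, 9 of 27 rose and 2 fell, against the same shares of all genes. Besides Fads1, Fasn, the fatty acid synthase, rose by 1.14 ± 0.17 and Acsl3, which activates fatty acids with CoA, by 0.88 ± 0.12. Srebf1, the SREBP of lipogenesis, rose by 0.74. Elovl2, an elongase, and Lpin2, a phosphatidate phosphatase, were the members that fell.

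Lysosomal genes rose in 20 of 46 members and fell in 1, with 5 higher with TFMPP and 13 with MeOPP, where 6.25%, 0.872% and 3.45% of all genes were higher. Rragd, a Rag GTPase that carries nutrient signals at the lysosome, went from 3.58, 4.49 and 4.40 to 5.51, 5.58 and 5.03 with TFMPP and from 4.28, 4.95 and 4.82 to 6.33, 6.53 and 5.39 with MeOPP. All treated arrays lay above all controls, with a pooled rise of 1.31 ± 0.17 (2.48-fold; adjusted p = 0.000119). Flcn, its partner in that signal, rose by 0.66 ± 0.09. Smaller rises were called for the lysosomal hydrolases Lipa (0.46) and Tpp1 (0.44) and for Lamp1, a lysosomal membrane protein, at 0.27 in the pooled comparison. With its probe sets averaged, Lamp1 stood at 0.16 and was not called (adjusted p = 0.0717). Ctsh, a cathepsin, fell by 0.57. The list median was 0.17 with TFMPP and 0.21 with MeOPP. Cd68, a macrophage marker that is also lysosomal, stood at 0.35 and did not pass, and the Kupffer cell and leukocyte list had a pooled median of -0.07.

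The E-box TCACGTG, a form of the element bound by the lysosomal regulator TFEB, was searched on both strands in 36 lysosomal promoters and found in 7. It is present in 2.79% of all promoters and in 4.7% of the measured genes with one. Of the 7 genes, Lamp1 alone was called higher, so its upstream sequence (chr16:83075064-83075313, minus strand) is shown with the matches in capitals.
Lamp1: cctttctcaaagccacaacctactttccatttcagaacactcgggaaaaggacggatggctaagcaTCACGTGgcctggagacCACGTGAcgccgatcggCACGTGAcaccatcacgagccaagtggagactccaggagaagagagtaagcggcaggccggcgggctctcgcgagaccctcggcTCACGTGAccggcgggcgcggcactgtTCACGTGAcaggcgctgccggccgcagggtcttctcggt
The window holds 7 matches counted on both strands, of which 2 sets overlap each other by all but 1 base. The other 6 genes, Atp6v0d1, Ctsd, Fnip1, Gaa, Glb1 and Mcoln1, did not pass in the pooled comparison. Gpnmb and Rragd are not among the 7.

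Breakdown of amino acids fell in 30 of 36 members and rose in 0, where 6.27% of all genes fell in the pooled comparison. With TFMPP 20 were lower and with MeOPP 30, where 1.71% and 4.52% of all genes were. The list median was -0.55 with TFMPP and -0.88 with MeOPP, and by pair -0.65, -0.45 and -0.50 against -0.86, -1.02 and -0.70. All 3 MeOPP medians lay below all 3 TFMPP medians. The change was deeper with MeOPP in 31 of 36 members, while over all genes TFMPP minus MeOPP was above 0 in 46.0%. None of the members passed for the difference.

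Single enzymes show the range. Bhmt2, which remethylates homocysteine, went from 9.93, 10.75 and 9.74 to 8.77, 9.61 and 8.15 with TFMPP and from 9.92, 10.60 and 9.67 to 7.65, 8.19 and 7.73 with MeOPP. All treated arrays lay below all controls, and the MeOPP changes lay below the TFMPP changes. The change was -1.30 with TFMPP and -2.20 with MeOPP, a difference of 0.91 with a 95% interval of 0.36 to 1.45. Aass, of lysine breakdown, changed by -1.29 and -2.12. Kynu, of tryptophan breakdown, and Agxt2, an aminotransferase of glyoxylate, had intervals within 0.5 on either side of 0. Their differences were 0.02 (-0.42 to 0.46) and -0.02 (-0.45 to 0.41). Tdo2, which starts tryptophan breakdown, did not pass, at -0.17.

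Urea cycle and glutamine genes fell in 9 of 14 members in the pooled comparison, in 0 with TFMPP alone and in 7 with MeOPP alone. Of all genes, 6.27%, 1.71% and 4.52% fell in these comparisons. The list median was -0.20 with TFMPP and -0.57 with MeOPP. By pair it was -0.355, -0.099 and -0.289 with TFMPP against -0.576, -0.592 and -0.372 with MeOPP. These did not overlap, though the nearest pairs lay close together. Arg1, the arginase that releases urea, went from 12.62, 12.61 and 12.41 to 12.26, 12.49 and 11.86 with TFMPP. With MeOPP it went from 12.51, 12.64 and 12.39 to 11.33, 11.65 and 11.35. The difference was 0.73 (95% interval 0.36 to 1.10; unadjusted p = 0.000747) and did not pass after adjustment. Otc, which makes citrulline, changed by -0.81 ± 0.19 in 5 of 6 pairs, and lost its pooled call without pair 1 of either compound or pair 2 of TFMPP (adjusted p from 0.0552 to 0.0656).

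**Figure D4:**
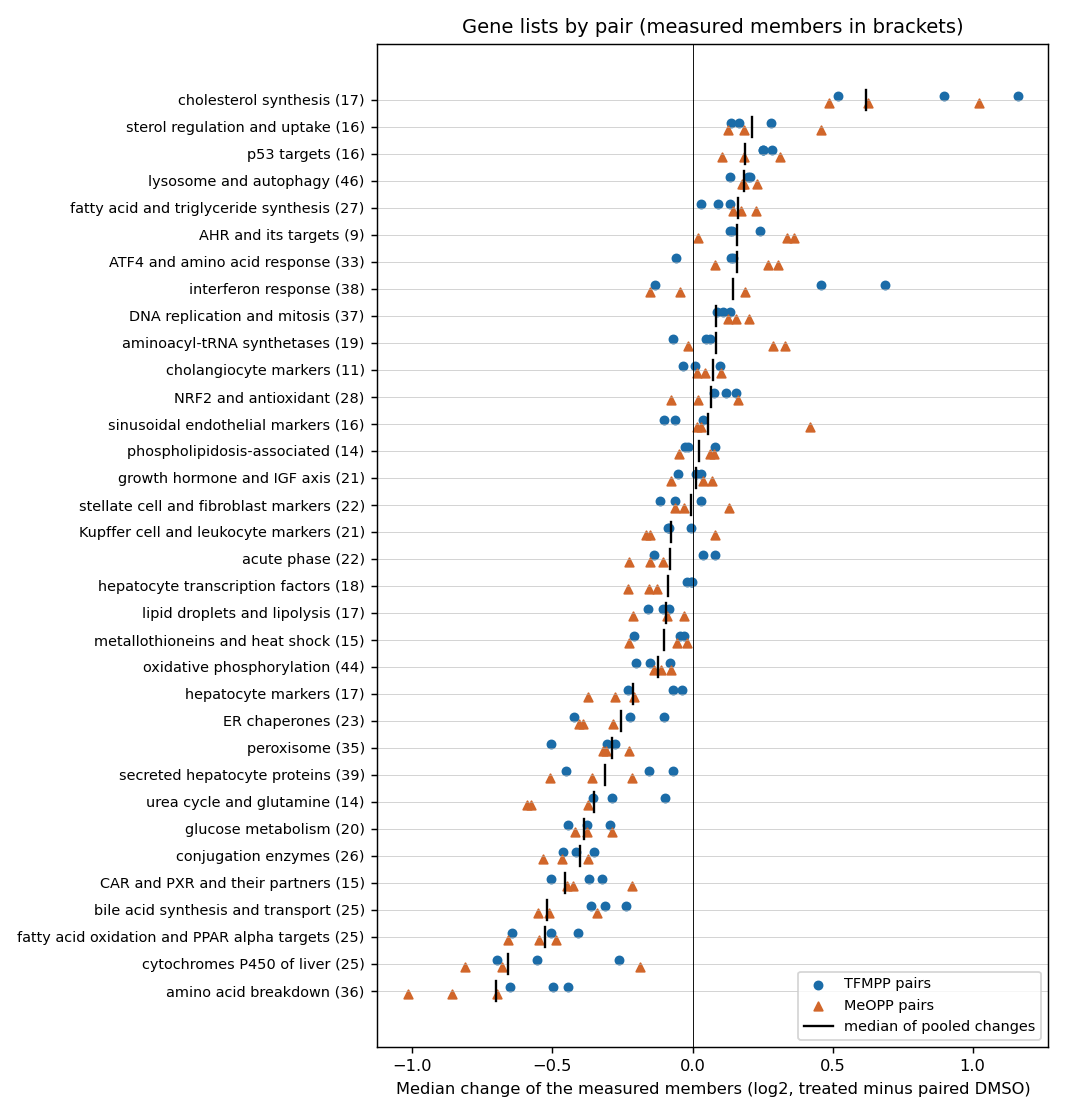
Median change of the measured members of 34 gene lists in each pair, as the log2 level of the treated array less that of its control. Circles are TFMPP pairs, triangles MeOPP pairs, the bar is the median of the pooled changes, and the number of measured members stands in brackets. Cholesterol synthesis lies highest, at 0.62, and amino acid breakdown lowest, at -0.70, and the 3 MeOPP points of amino acid breakdown lie to the left of the 3 TFMPP points.

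Bile acid synthesis and transport fell in 13 of 25 members and rose in 1, where 6.27% of all genes fell and 6.25% rose. Besides Slc10a1 and Cyp8b1, Acox2, which shortens the bile acid side chain in peroxisomes, went from 7.27, 8.01 and 7.15 to 6.00, 6.92 and 6.07 with TFMPP and from 7.31, 7.60 and 6.99 to 5.14, 5.29 and 5.17 with MeOPP. Treated and control arrays did not overlap. The difference between the compounds was 0.95 (95% interval 0.41 to 1.49). Abcb11, the export pump for bile salts, changed by -1.33 ± 0.09, with a difference of 0.13 (-0.24 to 0.49). Sult2a6, a sulfotransferase, changed by -2.06 ± 0.25. For Cyp7a1, which sets the pace at which bile acids are made, the change was -0.95 ± 0.22 (adjusted p = 0.012), and the call was lost without pair 2 of TFMPP (adjusted p = 0.0524) or of MeOPP (adjusted p = 0.0589). Abcc2, the canalicular pump for conjugates, was the member that rose, by 0.53.

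Cytochromes P450 of the liver fell in 16 of 25 members and rose in 0, with 11 lower with TFMPP and 12 with MeOPP. In the pooled comparison 6.27% of all genes fell and 6.25% rose, and 1.71% fell with TFMPP and 4.52% with MeOPP. Cyp4f4 changed by -1.49 ± 0.17, Cyp2a1, a steroid hydroxylase, by -1.44 ± 0.14 and Cyp2e1, which oxidises ethanol, by -1.18 ± 0.16. For Cyp2e1 the TFMPP change was -0.76 (adjusted p = 0.124) and the MeOPP change -1.61 (adjusted p = 0.000395), with a difference of 0.85 (95% interval 0.17 to 1.52). Conjugation enzymes fell in 15 of 26 and rose in 1, Gstp1, against the same pooled shares. The Gstp1 call, at 0.42, was lost without any 1 TFMPP pair or pair 2 of MeOPP (adjusted p from 0.0805 to 0.123). Nr1i3, the receptor CAR that senses foreign compounds, changed by -1.25 ± 0.26. In contrast Cyp1a1, the main target of the aryl hydrocarbon receptor, went from 8.10, 9.47 and 9.38 to 10.02, 10.71 and 9.94 with TFMPP and from 7.96, 9.78 and 9.10 to 9.96, 10.47 and 9.82 with MeOPP. All treated arrays lay above all controls, the lowest treated at 9.816 and the highest control at 9.781. The pooled rise was 1.19 ± 0.29 (2.28-fold; limma adjusted p = 0.0142), largest in pair 1 of each compound. The pooled adjusted p was 0.0731 without pair 1 of TFMPP and 0.0793 without pair 1 of MeOPP. Cyp1a1 did not pass with either compound alone (limma adjusted p = 0.173 with TFMPP and 0.124 with MeOPP). Nqo1, a quinone reductase, rose by 0.75 ± 0.09, and 3 of 9 members of this list rose in all, against 6.25% of all genes. The third was Ahr, the receptor itself. Its call was lost without any 1 TFMPP pair or pair 1 or 2 of MeOPP (limma adjusted p from 0.0604 to 0.138). With its probe sets averaged, Ahr was not called either (limma adjusted p = 0.0664). The count therefore rests partly on calls that single pairs decide.

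Among 25 genes of fatty acid oxidation and PPAR alpha, 19 fell, with list medians of -0.52 and -0.53 with TFMPP and MeOPP. In the pooled comparison 6.27% of all genes fell. Cyp4a3, a fatty acid hydroxylase, changed by -1.47 ± 0.12, Vnn1, a pantetheinase, by -1.31 ± 0.11 and Acaa2, a mitochondrial thiolase, by -0.94. Fgf21, a hormone switched on by PPAR alpha in fasting, was lower in 6 of 6 pairs but did not pass, at -1.12 ± 0.34 (adjusted p = 0.0533). Peroxisomal genes fell in 17 of 35, against the same 6.27%, led after Acox2 by Hao2, a hydroxyacid oxidase, at -1.35 ± 0.16. Dao, the D-amino acid oxidase, changed by -1.38 with TFMPP and by -0.90 with MeOPP, with an interval of the difference from -1.21 to 0.26. Glucose metabolism fell in 12 of 20 members, against the same 6.27%. With TFMPP 5 were lower and with MeOPP 8, where 1.71% and 4.52% of all genes were. Gys2, which builds glycogen in liver, changed by -1.76 ± 0.17, Fbp1, a phosphatase of gluconeogenesis, by -1.55 ± 0.12 and Slc37a4, which carries glucose 6-phosphate, by -1.41 ± 0.09. For Slc37a4 the MeOPP pairs lay below the TFMPP pairs, with a difference of 0.74 (0.38 to 1.11). Pck1, also of gluconeogenesis, was called lower but rose from 11.23 to 11.33 in pair 2 of TFMPP. Its call was lost without pair 1 of TFMPP (limma adjusted p = 0.0705) or pair 2 of MeOPP (limma adjusted p = 0.0601). G6pc1 was not measured.

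Secreted hepatocyte proteins fell in 22 of 39 members and rose in 0, where 6.27% of all genes fell and 6.25% rose. Apob, the core protein of secreted lipoproteins, went from 11.37, 11.77 and 10.67 to 10.65, 11.32 and 9.69 with TFMPP and from 11.36, 11.86 and 10.52 to 10.08, 10.46 and 9.02 with MeOPP. Every treated array lay below its own control, and the changes of the 2 compounds did not overlap, with a difference of 0.68 (0.34 to 1.01). Mttp, which loads lipid onto Apob, changed by -1.44 ± 0.12. The probe set of Alb, albumin, read 14.045 to 14.104 in all 12 arrays, with the same value of 14.066 in several, so it may be saturated and says nothing on whether Alb changed. The 17 hepatocyte markers included 9 that fell and 0 that rose, and their mean level was 11.34 to 11.76 with TFMPP and 11.15 to 11.45 with MeOPP. Chaperones of the endoplasmic reticulum fell in 13 of 23, in 0 with TFMPP alone and 9 with MeOPP alone, with Pdia4, a disulfide isomerase, at -0.75 ± 0.12. Of all genes, 6.27%, 1.71% and 4.52% fell in these comparisons. Hspa5 lost its pooled call without any 1 of the 6 pairs (limma adjusted p from 0.0809 to 0.127). The chaperone difference was above 0 in 20 of 23 members, against 46.0% of all genes, and 1 of them had an unadjusted p under 0.05. Its median was -0.016, 0.166 and 0.225 at replicate numbers 1, 2 and 3.

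Genes of DNA replication and mitosis rose in 10 of 37 members and fell in 0, where 6.25% of all genes rose and 6.27% fell. Mcm6, a subunit of the replicative helicase, went from 4.83, 4.37 and 5.12 to 5.43, 5.38 and 5.73 with TFMPP and from 5.10, 5.09 and 5.24 to 6.26, 5.72 and 6.00 with MeOPP. Treated and control arrays did not overlap, and the rise was 0.80 ± 0.08 (1.74-fold; adjusted p = 1.19e-05). Mki67, a marker of dividing cells, stood at 0.03 ± 0.07 (limma adjusted p = 0.881). Its level was 2.08 to 2.39 in the DMSO arrays and 2.14 to 2.51 in the treated ones. This is below the array medians of 4.45 to 4.52 and cannot be told from background, so it says nothing on cell division. Of the 37 members of the list, 14 had a mean level of at least 5. Targets of p53 rose in 6 of 16, against the same 6.25%, among them Phlda3, an inhibitor of Akt, by 0.63 ± 0.10 and Mdm2, the ligase that degrades p53, by 0.51 ± 0.08. The Mdm2 change was 0.51 with each compound, with an interval of the difference from -0.33 to 0.33. Cdkn1a, the cell cycle inhibitor p21, rose by 0.30 ± 0.07 (adjusted p = 0.0112), and lost the call without pair 1 (adjusted p = 0.054) or pair 3 (adjusted p = 0.0598) of TFMPP. With its probe sets averaged it stood at 0.25 and was not called (limma adjusted p = 0.0699).

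The stress lists differed in how many members were called, where 6.25% of all genes rose and 6.27% fell. Of 33 members of the ATF4 and amino acid response, 2 rose and 2 fell, close to these shares. Ddit3, Trib3 and Asns did not pass, at -0.12, 0.10 and 0.40. Of 28 NRF2 and antioxidant genes, 4 rose, Nqo1 among them, a larger share than over all genes, and 1 fell. Hmox1, heme oxygenase, stood at -0.21 ± 0.11 (limma adjusted p = 0.347). Among 15 metallothioneins and heat shock genes, Hspa1a, an inducible HSP70, fell by 1.07 ± 0.19 and 0 rose. Slc30a1, a zinc exporter, was called at -0.43, but not without pair 2 or 3 of TFMPP or pair 1 or 2 of MeOPP (adjusted p from 0.0747 to 0.122). For all 19 aminoacyl-tRNA synthetases the change was more positive with MeOPP, with a median difference of -0.16, and 1 had an unadjusted p under 0.05. The median of the members' differences was -0.24 and -0.26 between the pairs of replicate numbers 1 and 2 and 0.12 at number 3, so the sign turned at number 3. Oxidative phosphorylation fell in 5 of 44 and rose in 0, with small changes such as -0.32 for Ndufv2 of complex I. That call was lost without any 1 of the 6 pairs (adjusted p from 0.0606 to 0.128) and with repeated quantile normalization (adjusted p = 0.0507).

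Of the lists not yet described, phospholipidosis-associated genes are of interest for weak bases, which can gather in lysosomes. In this list 2 of 14 rose and 2 fell, with a pooled median of 0.02, the same as over all genes. For this and the next lists, 6.25% of all genes rose and 6.27% fell. Lipid droplet and lipolysis genes rose in 2 of 17 members and fell in 6. Partners and targets of CAR and PXR rose in 1 of 15 and fell in 7. Hepatocyte transcription factors rose in 1 of 18 and fell in 4, acute phase genes rose in 2 of 22 and fell in 3, and the growth hormone and IGF axis rose in 1 of 21 and fell in 2. Acute phase genes were more positive with TFMPP in 19 of 22 members, against 46.0% of all genes. Of the 22, 2 (9.09%) had an unadjusted p under 0.05 for the difference, against 5.49% of all genes. Stellate cell and fibroblast markers rose in 1 of 22 and fell in 1, and cholangiocyte markers rose or fell in 0 of 11.

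Interferon-response genes were higher with TFMPP than with MeOPP in 33 of 38 members. The list median was 0.39 with TFMPP and -0.001 with MeOPP, and 10 members had an unadjusted p under 0.05 for the difference (26.3%, against 5.49% of all genes), while 0 passed after adjustment. By pair the median was -0.13, 0.69 and 0.46 with TFMPP and -0.15, 0.19 and -0.04 with MeOPP. The rise with TFMPP was thus seen in pairs 2 and 3, where 35 and 34 of 38 members were above 0, and in pair 1 just 9 were. Usp18, a protease that removes ISG15, changed by -0.08, 1.16 and 0.94 with TFMPP and by -0.41, -0.29 and -0.51 with MeOPP, a difference of 1.08 (95% interval 0.40 to 1.76). Oas1a, which senses double-stranded RNA, changed by -0.10, 1.02 and 0.58 against -0.76, -0.50 and -0.31, a difference of 1.02 (0.45 to 1.60). Both were named after their values were seen. Where 6.25% of all genes rose and 6.27% fell, 4 members rose in the pooled comparison, Ifit3, Oasl, Irgm and Tap1, and 0 fell. Of these, Oasl lost the call without pair 2 or 3 of TFMPP or pair 1 or 2 of MeOPP, Irgm without pair 2 or 3 of TFMPP or pair 2 of MeOPP, and Ifit3 without pair 2 of MeOPP. Tap1 lost it with its probe sets averaged (adjusted p = 0.0624). With the 2 compounds averaged to 1 value per replicate number, Oasl (limma adjusted p = 0.0628) and Irgm (limma adjusted p = 0.0649) were not called. The Kupffer cell and leukocyte markers, some of which carry such genes, had a median of -0.08 with TFMPP and -0.09 with MeOPP, and their part in the result was not tested.

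Sinusoidal endothelial markers were the reverse, more positive with MeOPP in 13 of 16 members. Their median was -0.06 with TFMPP and 0.17 with MeOPP, and by pair 0.04, -0.10 and -0.06 against 0.42, 0.01 and 0.03, so that pair 1 of MeOPP alone lay above all TFMPP pairs. Emcn, a sialomucin of endothelium, stood at -0.10 with TFMPP and 0.83 with MeOPP, a difference of -0.93 (95% interval -1.58 to -0.28). It was named after its value was seen, as the lowest difference of the list, whose median difference was -0.28. The mean level of the 16 markers was 5.06 to 5.92 in the DMSO arrays of MeOPP and 5.55 to 6.02 in the treated arrays, and 4.77 to 5.97 and 4.84 to 5.78 in those of TFMPP. These ranges overlap, and 0 markers passed for the difference by limma, while 3 had an unadjusted p under 0.05.

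The genes with the smallest p for TFMPP minus MeOPP are given as values, since none passed. On the positive side stood Reps2, a protein of endocytosis, with a difference of 0.86 (95% interval 0.50 to 1.21), Znf750, a zinc finger factor, with 0.83 (0.48 to 1.17), and Plpp3, a lipid phosphate phosphatase, with 0.76 (0.44 to 1.09). All 3 fell with both compounds, and less with TFMPP. Plpp3 went from 9.16, 9.71 and 9.19 to 8.41, 9.43 and 8.66 with TFMPP and from 9.23, 9.65 and 9.19 to 7.99, 8.45 and 7.79 with MeOPP. Its same-numbered DMSO arrays differed by -0.07, 0.06 and 0.00, so the difference lay in the treated arrays.

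On the negative side the changes had opposite signs in all 3 pairs, as in 209 genes (1.47%) in this direction, 159 (1.12%) in the other and 368 (2.59%) in all. Gstm3, a glutathione transferase, changed by -0.51, -0.64 and -0.48 with TFMPP and by 0.03, 0.46 and 0.01 with MeOPP. Its difference of -0.71 lay in the controls, because the treated arrays of the 2 compounds differed by -0.09, 0.08 and 0.06, and the DMSO arrays by 0.45, 1.19 and 0.55. Amotl1, a scaffold of cell junctions, changed by -0.39, -0.10 and -0.23 with TFMPP and by 0.59, 0.28 and 0.24 with MeOPP, and its DMSO arrays differed by -0.11, -0.09 and -0.05. Tfpi2, a protease inhibitor, changed by -0.17, -0.02 and -0.78 against 0.94, 0.19 and 0.71. Csrp3, a LIM protein, rose in 6 of 6 pairs, by 0.35, 1.16 and 0.42 with TFMPP and by 1.77, 2.49 and 1.45 with MeOPP, with a difference of -1.26 (95% interval -2.13 to -0.38). It was among the 8 genes whose responses differed by at least 2-fold, with Slc10a1, whose difference was 1.07 (0.35 to 1.79), and none of the 8 passed. The changes of the 2 compounds did not overlap in 364 of the 1781 genes of the pooled response (20.4%), against 13.0% of all genes.

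**Figure D5:**
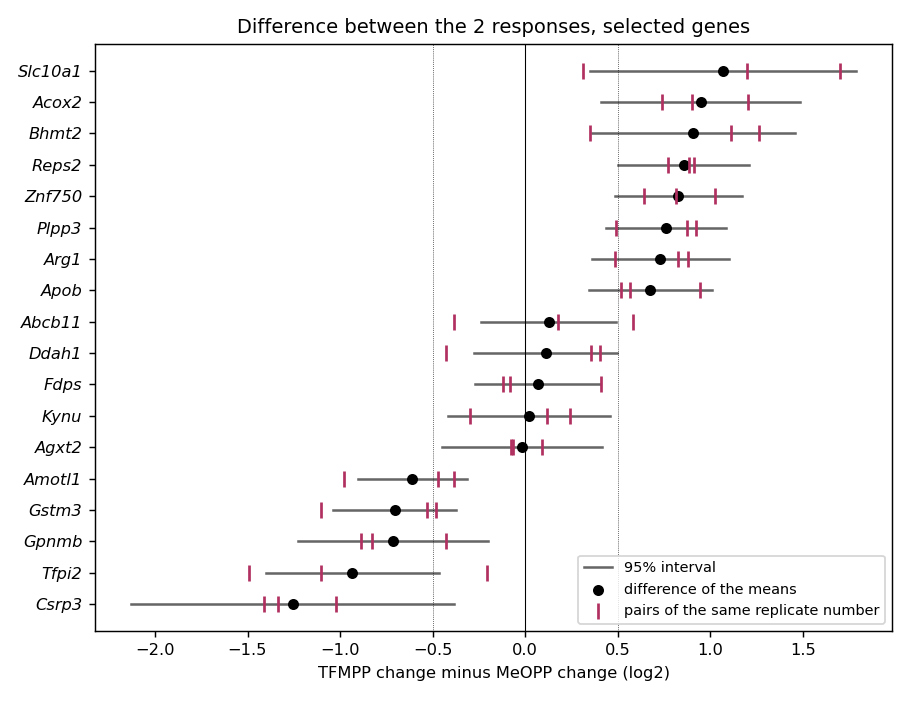
TFMPP change minus MeOPP change (log2) for 18 genes, with the difference of the means as a point, its 95% interval as a line and the differences of same-numbered pairs as ticks. Dotted lines mark 0.5 on either side of 0. The intervals of Abcb11, Ddah1, Fdps, Kynu and Agxt2 lie within the dotted lines, and that of Csrp3 runs from -2.13 to -0.38.

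The joint phenylpiperazine response was set against that of the 2 benzylpiperazines in the same model. For the pooled phenyl change minus the mean of BZP and MDBP, limma called 0 of 31042 probe sets (0.0%), with a smallest adjusted p of 0.0545 and 2421 (7.80%) at an unadjusted p under 0.05. Named after their values were seen, Gstt3, a glutathione transferase, fell by 1.07 with the phenylpiperazines and stood at -1.93 with the benzylpiperazines, a difference of 0.86 ± 0.13 (adjusted p = 0.0545). Gpam, which starts triglyceride synthesis, stood at -0.18 against 0.57, a difference of -0.75 ± 0.12 (adjusted p = 0.0545). The doses of all 4 compounds differ, so the ring system and the dose cannot be told apart.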

How the data were processed

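Total RNA of 12 treated and 12 DMSO samples was measured on Affymetrix arrays. The deposited log2 values came from RMA, according to the submitters' processing notes (version not given in the sources used here), a method that corrects background, quantile-normalizes and summarises probes. They were used unaltered, with a precision limited by how few arrays there are. The table held 31099 probe sets, and leaving out 57 Affymetrix controls gave 31042. Of these 20826 had 1 symbol in the platform table, 436 had several and 9780 had none. A gene is its probe set with the highest mean, which gave 14217 genes, and in 5 of 4525 genes with several probe sets the pooled calls went both ways.

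All 24 arrays entered 1 limma 3.58.1 model (R 4.3.3) that held 12 terms for pairs and 4 for drugs, leaving 8 residual degrees of freedom plus 7.66 from the prior. Two-sided moderated tests were adjusted by Benjamini-Hochberg over all 31042 probe sets. Controls are named in the sample titles, and a treated array and its control deviated together from the means of their groups (r 0.627 to 0.802). The fit was tested on simulated data.

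The 34 gene lists (757 of 856 genes measured), the members, the tests and the rule for named genes were chosen with earlier results of these data known. Named genes were the 12 largest pooled rises and falls with the same sign in 6 of 6 pairs, up to 3 called members per list, the first 3 by p in each direction of the difference, the 5 largest whose interval lay within 0.5, and 27 fixed genes. Others were named to describe a list. Promoters are 250 bases from RefSeq. Alternatives dropped the pair terms or single pairs, used 12 arrays, a mean of at least 5, repeated quantile normalization, averaged probe sets or 1 value per replicate number. Plots used matplotlib 3.10.9 under Python 3.11.15.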

Additional observations from a re-analysis of the deposited data

Results flagged for a closer look

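Gstm3, Amotl1 and Tfpi2 moved down in all 3 TFMPP pairs and up in all 3 MeOPP pairs. TFMPP minus MeOPP was -0.71 for Gstm3, -0.61 for Amotl1 and -0.93 for Tfpi2 on the log2 scale. The difference was tested in limma and did not pass after adjustment over all probe sets for any of them. Moves of opposite sign in all 3 pairs of both compounds were seen in 368 of 14217 genes (2.59%), of which 209 fell with TFMPP and rose with MeOPP. Amotl1 and Tfpi2 differed in the treated arrays, by a mean of -0.70 and -0.69, and Gstm3 in the DMSO arrays, by a mean of 0.73.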

How the results depend on the processing

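Without the pair terms (no replicate block), calls fell to 114 pooled, 1 with TFMPP and 12 with MeOPP, all of them also called with the pair terms, and 14 of 111 named genes kept the pooled call. Leaving out 1 pair gave 1747 to 2371 pooled calls (1747 without TFMPP replicate 3), 139 to 528 with TFMPP (139, 199 and 166 without its pairs 1, 2 and 3), 819 to 1671 with MeOPP (819, 834 and 1226 without its own) and 0 for the difference. With the replicate number as a block across compounds, the difference was called for 1 probe set, Csrp3, at -1.26 (limma adjusted p = 0.0446). Same-numbered changes deviated together at 0.133, 0.133 and 0.054. The main test did not take the numbers as pairs of the compounds, and differences between same-numbered arrays are given only as descriptions. With 1 value per replicate number 2606 probe sets were called, 2301 of them shared, and 9 named genes lost the call. The other settings (12 arrays, repeated quantile normalization, a mean of at least 5, averaged probe sets) stayed within 1.5 times the counts, with 0 for the difference. After the data were seen, 2 further sets were added. The correlation of the compounds was 0.796 with a mean of at least 5 and 0.664 to 0.699 without single pairs. The response size was -0.24, or -0.395 to -0.159 without single pairs. List medians moved for AHR (0.33), glucose (-0.51), the growth hormone axis (0.08) and replication (0.19) with a mean of at least 5, and for glucose (-0.28) with averaged probe sets. No result reversed. RMA values carry no detection calls, so low levels have no floor here.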
